A study of Mus musculus with 2 samples.

Results

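Of the 32285 genes in the count matrices, 10 of the MHC class I antigen-presentation pathway were described in single cells of mouse liver tumours: the class I heavy chains H2-K1 and H2-D1, the light chain B2m, the peptide transporter and loading genes Tap1, Tap2 and Tapbp, the transactivator Nlrc5, and the immunoproteasome subunits Psmb8, Psmb9 and Psmb10. The genes were chosen by name and not by a measured value, although earlier results of these data were known. All 10 were present in both matrices. The comparisons were hepatocyte-marker cells against leukocytes within each library, and the library labelled STK against the library labelled DMSO.

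The tissue was hepatocellular carcinoma from mice of genotype MYC-ON, dissected after gavage and labelled as STK-treated or DMSO-treated, so both groups carried the same genotype. Tumours were dissociated, and live cells positive for CD45, the surface protein of leukocytes, were sorted and run on the 10x 5′ droplet assay, which counts RNA molecules by unique molecular identifiers (UMIs). There was 1 library per group, both with the same batch label, and the labels do not say what STK stands for, how the MYC transgene was driven, or the age, strain, sex and number of the animals. Cells of 1 library are not replicates, so no test between groups was possible, no p-value is given, and every interval below is a 95% interval that covers counting error only.

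MHC class I molecules show peptides from inside a cell to CD8 T cells. The peptides are cut by the proteasome, carried into the endoplasmic reticulum by the transporter made of Tap1 and Tap2, and loaded onto a heavy chain paired with B2m, with tapasin (Tapbp) as the editor of the peptide-loading complex. Interferon-gamma signalling raises most genes of the pathway, partly through Irf1 and Nlrc5, and swaps the catalytic proteasome subunits Psmb5, Psmb6 and Psmb7 for Psmb8, Psmb9 and Psmb10. Leukocytes carry high class I levels, whereas hepatocytes are known for low class I in the resting liver.

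Sequences upstream of the start site are shown first, so that the letters before the class I and Psmb10 genes can be read beside their values; whether these letters bear on the levels was not tested. RefSeq promoter sequence (GRCm38.p6) was matched for 8 of the 10 genes, and the 250 bases before the start were searched on both strands. The spellings searched were GGGGA and TCCCC with 1 base between them (a kappa B site), GAANNGAAA (like the interferon-stimulated response element, ISRE), GAAA repeated after a gap of 2 bases (a wider ISRE spelling, added after the B2m sequence had been read) and CCAAT. The stretch from the kappa B to the ISRE-like match is given for both heavy chains at chr17:34000429-34000458 (minus strand, H2-K1) and chr17:35262923-35262952 (plus strand, H2-D1), 5′ to 3′ in the direction of the gene, with matches in capitals:

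H2-K1: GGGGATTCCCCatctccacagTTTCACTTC

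H2-D1: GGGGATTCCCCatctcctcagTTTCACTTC

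These 30 bases differed by 1 substitution, A18T, counted from 1 at the 5′ end with the H2-K1 base first. The kappa B match fits the spelling searched on both strands, which read alike but for the middle base. The ISRE-like match lies on the opposite strand, and the matches do not overlap. They began 111 and 90 bases before the start of H2-K1 and 171 and 150 bases before the RefSeq start of H2-D1. The span given below for H2-D1, from the GENCODE annotation, starts further upstream and holds the H2-D1 stretch. Of 32851 promoters, 0.0457% held the kappa B letters and 6.31% the ISRE-like letters, and among the 8 matched promoters only those of H2-K1 and H2-D1 held either.

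The light-chain promoter is shown to set beside them, at chr2:122147437-122147685 (plus strand), with the wider ISRE match and the reversed CCAAT box in capitals:

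B2m: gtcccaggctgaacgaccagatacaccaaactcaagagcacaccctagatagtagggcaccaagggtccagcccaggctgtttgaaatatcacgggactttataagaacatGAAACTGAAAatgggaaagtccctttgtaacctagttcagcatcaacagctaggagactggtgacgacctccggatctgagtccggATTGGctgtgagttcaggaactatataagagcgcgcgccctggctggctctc

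The wider ISRE letters were in 2.98% of all promoters and, of the 8, in B2m alone. Neither Psmb10, the gene that departed from the other 9 in the values below, nor Psmb8 held any of the 4 spellings. Psmb8 was among the 9 lower genes, so within the windows searched the absence of these letters does not set Psmb10 apart. The windows of Psmb8, Psmb9 and Tapbp lay before their RefSeq starts but inside the GENCODE spans given below. The bases before those spans were not searched for these genes. The upstream stretch of Psmb10 is shown at chr8:105938445-105938642 (minus strand):

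Psmb10: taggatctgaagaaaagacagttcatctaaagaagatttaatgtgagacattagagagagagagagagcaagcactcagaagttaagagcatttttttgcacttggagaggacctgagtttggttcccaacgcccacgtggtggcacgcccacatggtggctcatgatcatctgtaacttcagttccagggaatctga

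CCAAT, in 33.8% of all promoters, was in 6 of the 8. A match is a description of the letters and says nothing of binding in these cells.

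The libraries held 7.93e+07 (DMSO) and 8.19e+07 (STK) UMIs, and 11152 and 10846 barcodes had at least 500 UMIs, 250 genes and at most 10% mitochondrial UMIs. Of the barcode sequences kept, 183 occurred in both libraries. Cells with a UMI of Xist or of a Y-linked gene were found in both libraries, and 16.5% of the sexed leukocytes were female in the DMSO library against 72.8% in the STK library, so each library held cells of both sexes in different proportions. Values within each sex are therefore given beside the comparison of libraries.

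Leukocytes were cells with a UMI of at least 3 of the 8 markers of 1 of 11 leukocyte lists and of more markers of that list than of any other, which gave 8074 DMSO and 8477 STK cells in 14 classes once T cells had been split. Class names denote these marker gates only. For hepatocytes the planned gate was Alb, Apoa1, Apoa2 and Ttr together at 5% of UMIs or more, and it held 11 cells in each library, with shares from 5.29% to 8.27% and from 5.04% to 11.8%. The highest shares just below the gate were 4.95% and 4.65%. A wider gate was therefore added after the data had been seen: at least 3 of 8 other hepatocyte markers (Ahsg, Apob, Fgb, Trf, Serpina1c, Hnf4a, Cps1, Afp), more than of any leukocyte, endothelial, stellate or cholangiocyte list, and no leukocyte call. This gate held 1376 DMSO and 942 STK cells, called hepatocyte-marker cells here, and all 22 cells of the 5% gate.

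The hepatocyte-marker cells were deep, with a median of 21636 and 21314.5 UMIs against 4430 and 4854 in leukocytes. All 8 of the markers that defined them were above 10 CPM (UMIs per 1000000 UMIs of the gate) in both libraries, and Afp, a fetal liver protein that many liver tumours make, was at 2723 CPM (DMSO) and 2697 CPM (STK). As these markers chose the cells, their levels are no separate evidence of identity. The share of UMIs from Alb, Apoa1, Apoa2 and Ttr, not used by this gate, had medians of 0.722% and 0.682%. In leukocytes the medians were 0.0150% and 0.00901%. Whether the hepatocyte-marker cells were tumour cells or other hepatocytes was not tested. Leukocytes pooled held the 8 hepatocyte markers of this gate too, summing to 919 and 844 CPM against 6973 and 6904 CPM. Of the leukocytes, 76 (DMSO) and 87 (STK) had more hepatocyte than leukocyte-class markers. How hepatocyte RNA was spread over leukocyte cells and classes was not tested. The 8 pan-leukocyte markers, among them Ptprc, the gene for CD45, summed to 50.5 and 54.4 CPM, which was 0.636% and 0.710% of their level in leukocytes, although the sort was for CD45. No pan-leukocyte UMI was seen in 1034 and 709 of the hepatocyte-marker cells, and these cells are given separately below as the cells with the least leukocyte RNA.

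In hepatocyte-marker cells, 9 of the 10 genes (each but Psmb10) were at least 1.5 times lower than in leukocytes in each library, where 36.4% (DMSO) and 36.6% (STK) of all genes tested were. Psmb10 was just past 1.5 times higher in the DMSO library and under it in the STK library, where 35.6% and 34.5% of all genes tested were past it. The median ratio over the 10 genes was 0.0209 and 0.0162, beside 1.01 and 0.982 over all genes tested. In the cells with no pan-leukocyte UMI, 9 of 10 were again lower (37.5% and 37.7% of all genes) and Psmb10 was higher, past 1.5 times in DMSO (34.8% and 33.7%), with medians of 0.0144 and 0.00624 beside 0.982 and 0.949. In the 5% gate, 9 of 10 were lower and 0 higher, but there 76.5% and 77.5% of all genes were lower and 4.53% and 3.70% higher, so that count adds little.

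H2-K1 (chr17:33996017-34000347, minus strand), a classical heavy chain, was at 155 CPM in hepatocyte-marker cells and 2644 CPM in leukocytes of the DMSO library. In the STK library it was at 179 and 3200 CPM. The gene was thus 17.1 times lower (16.6 to 17.6) and 17.9 times lower (17.3 to 18.5) in the 2 libraries. H2-D1 (chr17:35262730-35267499, plus strand), the other classical heavy chain, was at 29.9 CPM against 3076 CPM in the DMSO library and at 38.9 against 3953 CPM in the STK library. Its gap was wider than that of H2-K1, 103.0 times (96.2 to 110) and 101.5 times (94.5 to 109). In hepatocyte-marker cells with no pan-leukocyte UMI, H2-D1 was lower again, at 14.3 and 17.6 CPM, while H2-K1 held at 139 and 159 CPM. The heavy-chain genes of the H2-K, H2-D and H2-Q families are near-identical over long stretches, and how reads were divided among them is uncertain, also because the strain is not given.

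B2m (chr2:122147686-122153083, plus strand), the light chain that every class I heavy chain needs, was at 128 CPM in DMSO hepatocyte-marker cells and 132 CPM in STK ones. In leukocytes it was at 2644 and 2446 CPM. It was 20.6 times lower (19.9 to 21.3) and 18.5 times lower (17.8 to 19.2), close to the gap of H2-K1. Without any cell that held a pan-leukocyte UMI, B2m stood at 112 and 115 CPM.

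The loading genes split in the same way. Tapbp (chr17:33915899-33929292), tapasin, was at 12.2 and 14.4 CPM in hepatocyte-marker cells against 262 and 262 CPM in leukocytes, 21.4 and 18.1 times lower. Tap1 (chr17:34187553-34197225), a subunit of the peptide transporter, was at 5.11 and 3.74 CPM against 173 and 163 CPM, 33.8 and 43.5 times lower. Tap2 (chr17:34203527-34216321), its partner, was down to 34 UMIs (1.21 CPM) and 18 UMIs (0.923 CPM) over all hepatocyte-marker cells, 121 times (86.3 to 175) and 154 times (97.6 to 260.5) below leukocytes. Tapasin therefore stayed at about the ratio of H2-K1 and B2m, while both transporter subunits were further down.

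Nlrc5 (chr8:94434356-94527272), the class I transactivator, gave 17 DMSO and 9 STK UMIs in hepatocyte-marker cells, 0.603 and 0.462 CPM. Leukocytes had 40.7 and 40.3 CPM. The gap was 67.4 times (42.0 to 116) and 87.3 times (45.9 to 191), with wide intervals because so few molecules were counted.

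The immunoproteasome subunits did not behave alike. Psmb8 (chr17:34197721-34201454) was at 6.21 and 5.75 CPM in hepatocyte-marker cells and 750.0 and 781 CPM in leukocytes, 121 and 136 times lower. Psmb9 (chr17:34181987-34187764, minus strand), which overlaps Tap1 head to head by 212 bases, was at 4.33 and 3.18 CPM against 325 and 377 CPM, 75.1 and 118 times lower. Psmb10 (chr8:105935735-105938444, minus strand) went the other way, at 413 and 377 CPM in hepatocyte-marker cells against 275 and 272 CPM in leukocytes, 1.502 times (1.46 to 1.54) and 1.39 times (1.35 to 1.43) higher. Psmb8, Psmb9, Tap1 and Tap2 lie together within 34.3 kb of chromosome 17, and Psmb10 lies on chromosome 8. Antisense genes overlap Psmb8, Psmb10, Tap2 and Tapbp, and whether the counting used strand is not given in the sources used here.

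**Figure D1:**
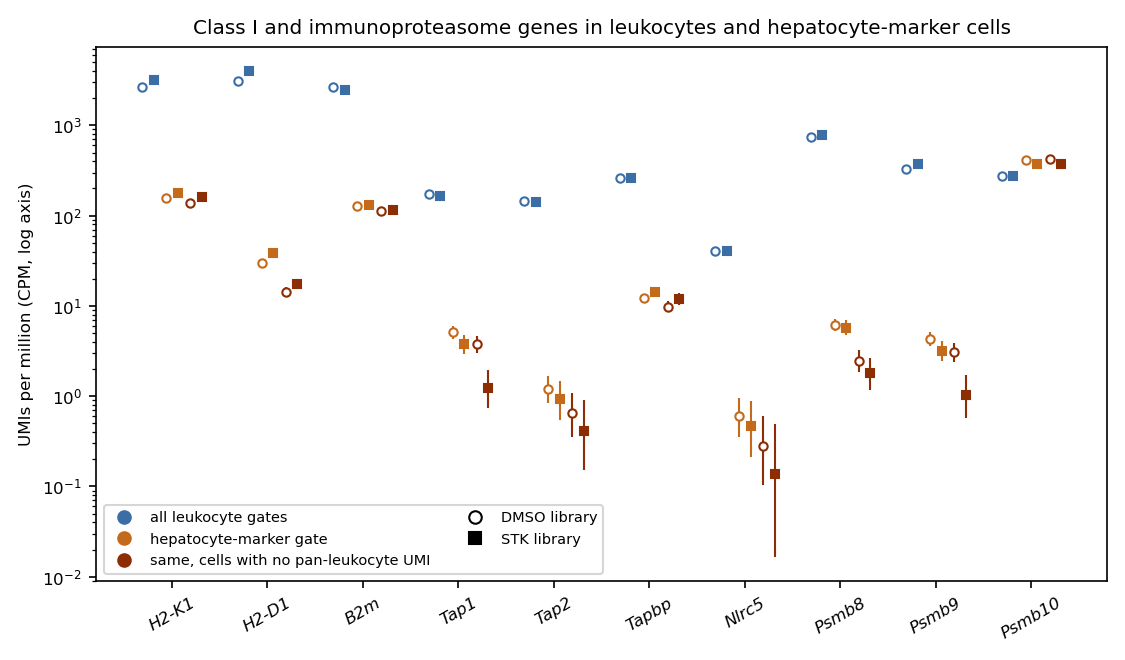
CPM, on a log axis, of the 10 genes in all leukocytes (blue), hepatocyte-marker cells (orange) and hepatocyte-marker cells with no pan-leukocyte UMI (dark red), open circles for the DMSO and filled squares for the STK library, with exact Poisson 95% bars that cover counting error only. Each gene but Psmb10 sits at least 17.1 times lower in hepatocyte-marker cells than in leukocytes, and Psmb10 sits at 413 and 377 CPM, above leukocytes in both libraries.

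Because leukocyte RNA could reach droplets of other cells, its trace was measured. In hepatocyte-marker cells with no pan-leukocyte UMI, 7 abundant leukocyte genes outside that list (Lyz2, Cd74, S100a9, Ccl5, H2-Aa, Tyrobp, Fcer1g, picked for this check after the data had been seen) stood at 0.0660% to 0.146% of their leukocyte level in the DMSO library and at 0.0614% to 0.209% in the STK library. On the same scale H2-K1 stood at 5.27% and 4.97%, B2m at 4.23% and 4.71%, and Tapbp at 3.74% and 4.58%. Those 3 genes were thus above the range of the 7 genes. These cells were chosen for holding no pan-leukocyte UMI. Over all hepatocyte-marker cells the 7 genes stood at 0.392% to 1.14% (DMSO) and 0.0588% to 0.786% (STK). In the chosen cells Tap1 stood at 2.19% and 0.761%, Psmb9 at 0.947% and 0.274%, and H2-D1 at 0.465% and 0.446%. Tap2 stood at 0.448% and 0.290%, and Psmb8 at 0.330% and 0.229%. All of these were above the range of the 7 genes in those cells and nearer to it. The 88 leukocyte class markers together stood at 1.80% and 1.51%, on 177 and 155 CPM. Of these, Fn1, the fibronectin gene, which hepatocytes also express, gave 115 and 109 CPM of the 117 and 111 CPM of the classical monocyte list. Psmb9, H2-D1, Tap2 and Psmb8 lay below the 88-marker level in both libraries, and Tap1 lay below it in the STK library. The trace thus depends on the markers taken, and whether these genes exceed it was not tested. In the same cells, 77.0% and 74.3% held a UMI of H2-K1 and 83.8% and 83.1% one of Psmb10, while 11.8% and 19.2% held one of Cd74, an MHC class II chaperone, and 7.06% and 12.1% one of Lyz2, a lysozyme of myeloid cells. Shares for Tap1 (4.35% and 1.55%), Psmb8 (3.97% and 3.24%) and Psmb9 (4.35% and 1.69%) were below both. Cd74, at 9464 and 11552 CPM, and Lyz2, at 4318 and 3745 CPM, are far more abundant in leukocytes than these 3 genes, so their shares do not set the background of Tap1, Psmb8 or Psmb9. H2-D1 (18.7% and 21.0%) and Tapbp (15.9% and 17.6%) were near the share of Cd74, with Tapbp below it in the STK library.

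Among the low genes the few molecules sat in few cells. The 81 Tap1 UMIs of the DMSO library came from 45 of 1034 cells, with 10 in 1 cell, and the 18 of the STK library from 11 of 709 cells, with 5 in 1 cell. The DMSO cell with the most UMIs of Tap1, Psmb8 and Psmb9 summed, looked up after the data were seen, held 10 Tap1, 2 Psmb8, 0 Psmb9, 20 H2-K1, 24 B2m, 28 Irf1 and 41 Afp UMIs among its 21433. H2-K1, in contrast, was spread over most cells, with a median of 2 UMIs per cell in both libraries and a highest count of 31 and 27. Psmb10 had medians of 7 and 6.

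Across hepatocyte-marker cells, H2-K1 had no steady relation to the share of UMIs from Alb, Apoa1, Apoa2 and Ttr. It was at 248 (DMSO) and 295 (STK) CPM in cells with a share under 0.5%, at 117 and 128 CPM from 0.5 to 1%, at 127 and 139 CPM from 1 to 2%, at 161 and 147 CPM from 2 to 5%, and at 358 and 280 CPM in the 5% gate. Pan-leukocyte RNA was also highest at both ends, at 1.75% and 1.72% of the leukocyte level under 0.5% and at 2.11% and 2.82% in the 5% gate, against 0.297% and 0.335% from 0.5 to 1%, and its part in the difference was not tested. In the 22 cells of the 5% gate, the median cell held 7 (DMSO) and 2 (STK) UMIs of H2-K1 and 8 and 9 of B2m. Psmb8 was found in 3 and 2 of the 11 cells, Psmb9 in 2 and 1, and Nlrc5 in 0 and 1, where 0 of 11 allows a share of up to 27.3%. Psmb10 was found in 10 and 9 of the 11 cells. Over the 11 cells of each library, B2m was at 431 (DMSO) and 482 (STK) CPM, 6.14 and 5.07 times below leukocytes, and H2-K1 was 7.40 and 11.4 times below them. Psmb8 was at 21.5 and 27.1 CPM on 5 and 6 UMIs, 34.8 times (14.9 to 107) and 28.9 times (13.3 to 78.7) below leukocytes, a smaller gap than in the wider gate. All STK Psmb8 UMIs were in 2 cells, 3 in each, which held 27 and 18 pan-leukocyte UMIs. In DMSO, 3 were in a cell with 34 pan-leukocyte UMIs and the others, 1 per cell, in cells with 0. The part of leukocyte RNA in the smaller gap was not tested. Psmb10 was at 293 and 212 CPM, 1.06 times (0.826 to 1.35) the leukocyte level in DMSO and 0.779 times (0.572 to 1.04) in STK. Its STK value was thus below leukocytes, with an interval that holds equality.

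Seen per cell and not as CPM, the gaps of the lower genes were smaller and that of Psmb10 larger, since hepatocyte-marker cells held more UMIs each. H2-K1 was then at 0.222 (DMSO) and 0.184 (STK) of its leukocyte level and Psmb10 at 5.69 and 4.56 times. Each of the 9 other genes was also lower per cell in both libraries.

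The rest of the pathway was taken from lists that were chosen with earlier results of these data known. Of all genes tested, 36.4% (DMSO) and 36.6% (STK) were at least 1.5 times lower in hepatocyte-marker cells and 35.6% and 34.5% higher. These shares stand beside every count from the lists. Of 9 non-classical class I genes, 8 were at least 1.5 times lower in hepatocyte-marker cells in each library and 1 was higher. The higher gene was H2-Q10, which encodes a class I molecule that liver secretes, at 154 and 131 CPM against 25.2 and 23.9 CPM in leukocytes, 6.10 and 5.46 times. Among those lower, H2-Q7 was at 5.21 and 8.41 CPM against 473 and 576 CPM, and H2-M3, which presents formylated peptides, at 26 and 14 UMIs in all, 86.8 and 119 times lower. H2-T23, the ligand of an NK-cell receptor, was less far down, 13.6 and 12.7 times.

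General folding chaperones did not share the gap. Canx was 1.88 and 1.61 times higher in hepatocyte-marker cells, Calr 1.11 and 1.03 times, and Pdia3 was at 0.853 and 0.709 of its leukocyte level. Of the 5 genes in that list, the 2 at least 1.5 times lower were Tapbpl, a relative of tapasin (9.57 and 7.72 times), and the trimming peptidase Erap1 (3.52 and 4.12 times). Of all genes tested, 36.4% and 36.6% were lower, so a count of 2 of 5 is near that share and describes these 5 genes only.

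The constitutive catalytic subunits were all higher in hepatocyte-marker cells, Psmb5 by 1.88 and 1.68 times, Psmb6 by 1.55 and 1.47 times and Psmb7 by 1.80 and 1.80 times. Psmb10, at 1.502 and 1.39 times, lay near these 3 genes and not near Psmb8 or Psmb9. Of the 3 proteasome activator genes, Psme1 was 4.71 and 4.35 times lower and Psme2 4.91 and 4.76 times lower, while Psme3, whose product is nuclear and not induced by interferon-gamma, was at 1.23 and 1.16 times its leukocyte level.

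Regulators mostly followed the low genes. Irf1, an interferon-induced transcription factor, was 6.97 and 4.77 times lower and Irf2 8.82 and 7.33 times. Of the RFX complex, which binds class I and II promoters, Rfxank was 3.70 and 3.15 times lower and Rfx5 1.82 and 1.62 times lower, while Rfxap was at 1.42 and 1.59 times its leukocyte level. All 4 genes for the interferon-gamma receptor and its kinases were lower, Ifngr1 by 14.8 and 13.7 times, Jak2 by 16.4 and 14.6 times, and Ifngr2 and Jak1 by 3.15 to 4.85 times.

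Within leukocytes the 10 genes also varied by class, and for each but Psmb10 by less than between leukocytes and hepatocyte-marker cells. The highest of the 14 classes was 2.48 to 8.57 times the lowest in the DMSO library and 2.83 to 5.93 times in the STK library, depending on the gene. The class with the highest level was the same in both libraries for 6 of the 10 genes and the lowest class for 7.

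H2-K1 was highest in Treg cells of the DMSO library and in CD4 T cells of the STK library, where the intervals of these classes overlapped. Treg cells had 4255 (DMSO) and 4803 (STK) CPM, CD4 T cells 3602 and 4842, migratory dendritic cells 3674 and 4343, NK cells 3387 and 4000.1, and the lowest level was in cDC1, the dendritic cells that cross-present antigen, at 1043 and 1366. Neutrophils, at 1104 and 1536 CPM, were next to lowest. H2-D1 had another order, with migratory dendritic cells highest at 4601 and 5999 CPM and cDC1 lowest at 1642 and 2123. Neutrophils, low for H2-K1, were at 3213 and 3740 CPM of H2-D1, the 5th and 10th of the 14 classes. B2m was again highest in migratory dendritic cells, 4579 and 4227 CPM, and lowest in cDC1, 1275 and 1218.

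Psmb8, Psmb9 and Tap1 ran against the heavy chains in cDC1, and Psmb10 did not. Psmb8 was highest there, at 1386 and 1458 CPM, followed by migratory dendritic cells at 1224 and 1322, and was lowest in neutrophils, at 321 and 346. Psmb9 had its highest level in cDC1 too, at 771 and 911 CPM. Tap1 in cDC1, at 270 and 276 CPM, was above the medians over classes of 153 and 156. Psmb10 in cDC1, at 218 and 204 CPM, was below its medians over classes of 262 and 273. The cDC1 gate thus held the most Psmb8 and Psmb9 and the least H2-K1, H2-D1 and B2m of the 14 classes, as a fraction of a large RNA content: its median was 11155 and 13314 UMIs per cell, the deepest of the classes.

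Migratory dendritic cells had the most Nlrc5, at 103 and 104 CPM, and B cells the least, at 12.0 and 17.5 CPM from 9 and 16 UMIs. CD8 T cells followed with 64.5 and 67.3 CPM, and CD4 T cells with 58.9 and 63.5. Tapbp was highest in pDC (421 CPM) in the DMSO library and in migratory dendritic cells (501 CPM) in the STK library. Tap1 and Tap2 were highest in Treg cells of the DMSO library (333 and 261 CPM) and in migratory dendritic cells of the STK library (287 and 261 CPM). Psmb10 ran from 135 and 125 CPM in neutrophils to 335 and 354 in classical monocytes. Of the 13 pairs of neighbouring classes in its order, 13 (DMSO) and 12 (STK) had overlapping intervals, against 4 and 3 for H2-K1, and Tapbp and Nlrc5 each had 12 and 11, so most single steps in the order of these 3 genes were within counting error. The neutrophil and B gates were shallow, with medians of 1337 and 1365.5 and of 1822 and 2095.5 UMIs.

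**Figure D2:**
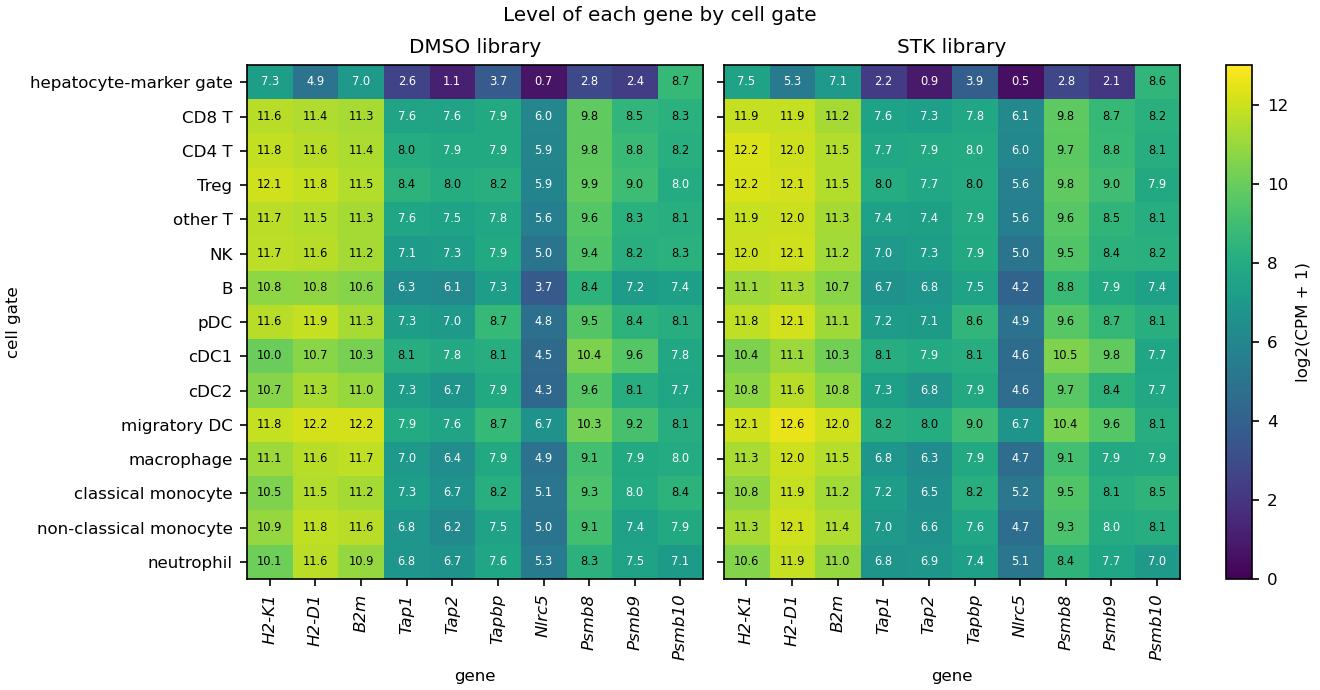
Level of the 10 genes as log2(CPM + 1) (number and colour in each cell) in hepatocyte-marker cells and the 14 leukocyte classes, DMSO library on the left and STK library on the right. The hepatocyte-marker row holds the lowest value of its column for 9 genes and the highest for Psmb10, and cDC1 combines the highest Psmb8 and Psmb9 with the lowest H2-K1, H2-D1 and B2m among leukocytes.

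The balance between immunoproteasome and constitutive subunits was taken as the share of UMIs of each catalytic pair, which does not depend on the total RNA of a gate. UMIs are counted from one end of a transcript and so do not scale with its length. Psmb8 made up 76.7% (76.2 to 77.1) of the Psmb8 and Psmb5 UMIs in DMSO leukocytes and 74.7% (74.3 to 75.0) in STK leukocytes. In hepatocyte-marker cells it made up 1.43% (1.23 to 1.65) and 1.28% (1.05 to 1.54), and in those with no pan-leukocyte UMI 0.571% (0.428 to 0.747) and 0.399% (0.261 to 0.585). The share in hepatocyte-marker cells thus fell more than 1.5 times once cells with a trace of leukocyte RNA were set aside. In the 5% gate it was higher, at 6.85% (2.26 to 15.3) and 6.98% (2.60 to 14.6), where pan-leukocyte RNA was also higher, as given above; its part was not tested. Psmb9 made up 56.4% and 58.1% of its pair with Psmb6 in leukocytes, 1.10% and 0.791% in hepatocyte-marker cells, 0.775% and 0.260% in those with no pan-leukocyte UMI, and 5.19% and 4.48% in the 5% gate.

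For Psmb10 and Psmb7 the shares were alike in both cell types. Psmb10 made up 73.4% (72.7 to 74.1) and 73.4% (72.8 to 74.1) in leukocytes and 69.8% (69.1 to 70.5) and 68.0% (67.1 to 68.9) in hepatocyte-marker cells, 70.4% and 68.0% in those with no pan-leukocyte UMI, and 63.6% and 61.0% in the 5% gate. The difference of a few percentage points is larger than the counting error, and nothing like that of the other pairs. Across the 14 leukocyte classes, the Psmb8 share ran from 65.3% in B cells to 87.4% in migratory dendritic cells of the DMSO library, and the Psmb9 share from 39.8% in macrophages to 71.5% in cDC1. In the STK library the same lowest classes stood at 68.2% and 36.7%, with migratory dendritic cells highest for both, at 85.8% and 76.2%. No leukocyte class came near the shares of the hepatocyte-marker cells for Psmb8 or Psmb9.

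**Figure D3:**
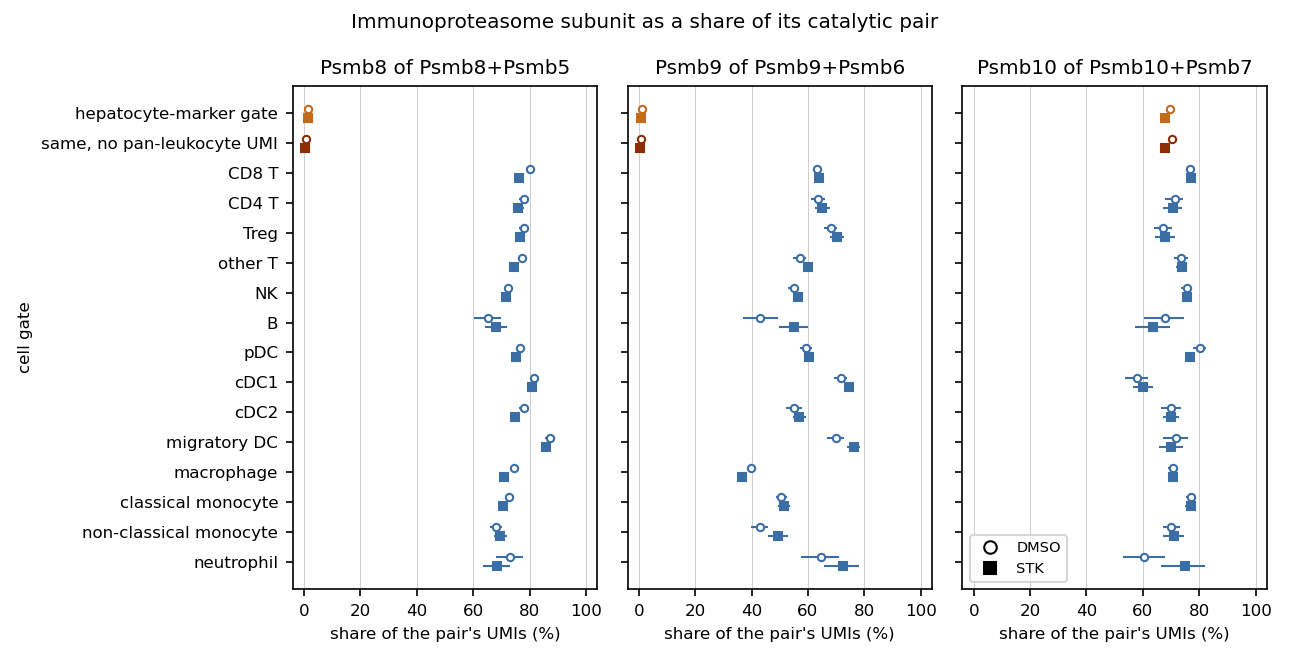
Psmb8, Psmb9 and Psmb10 as a percentage of the UMIs of their pair with Psmb5, Psmb6 and Psmb7 (3 panels, x axis in percent) in hepatocyte-marker cells, those with no pan-leukocyte UMI, and the 14 leukocyte classes, open circles for DMSO and filled squares for STK, with exact Clopper-Pearson 95% bars. The Psmb8 and Psmb9 shares lie at 1.43% or less in hepatocyte-marker cells and at 36.7% or more in every leukocyte class, whereas the Psmb10 shares of both cell types overlap in range.

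Between the libraries, none of the 10 genes was 1.5 times higher or lower in STK in all leukocytes together, where 3.94% of all genes tested were higher and 4.41% lower. The median ratio over the 10 genes was 0.995, and 0.982 over all genes. The heavy chains differed most: H2-K1 was at 2644 CPM in DMSO and 3200 CPM in STK leukocytes, a ratio of 1.21 (1.20 to 1.22), and H2-D1 at 3076 and 3953 CPM, a ratio of 1.29 (1.28 to 1.29). Psmb9 was at 1.16 times (1.13 to 1.18), and B2m went down slightly, to 0.925 (0.918 to 0.933). The other 6 genes lay between 0.944 (Tap1) and 1.04 (Psmb8). With 1 library per group, ratios of this size cannot be told apart from differences between any pair of libraries or mice.

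H2-K1 and H2-D1 were above equality in all 14 leukocyte classes, with every interval above 1. The ratio ran from 1.11 in cDC2 to 1.39 in neutrophils for H2-K1, with a median of 1.19, and from 1.16 in neutrophils to 1.39 in the T cells left without a subset for H2-D1, with a median of 1.29. Psmb9 was above equality in 13 of 14 classes (median 1.17), with 10 intervals above 1, and at 0.969 in macrophages. B2m was below equality in 10 of 14 classes (median 0.957), so the light chain and the heavy chains did not move together. Nlrc5 had 14 of 14 intervals that held equality, and Psmb10 13 of 14. The 14 classes come from the same libraries and are not replicates of each other. How many of all genes lay on 1 side of equality in as many classes was not counted.

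Of the 140 pairs of gene and class, 2 were at least 1.5 times higher in STK and 0 lower, where 5.42% and 5.44% of all such pairs of genes and classes were. Both were in B cells: Tap2, from 52 UMIs (69.4 CPM) in DMSO to 104 UMIs (114 CPM) in STK, 1.64 times (1.17 to 2.34), and Psmb9, from 110 (147 CPM) to 219 UMIs (240.0 CPM), 1.63 times (1.29 to 2.07). Immunoglobulin transcripts, which fill antibody-secreting cells, were 14.8% of B-gate UMIs in DMSO and 11.7% in STK, and 45.3% and 84.2% of the sexed B cells were female; their part was not tested. Of the 140 pairs, 138 had 50 UMIs on the higher side. In B cells 2 of the 9 members with such counts were higher, where 10% of all genes were.

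Since the sexes were mixed unevenly, the ratios were also taken within each sex, in the 7 classes with at least 50 female cells and the 10 with at least 50 male cells in both libraries. H2-K1 was higher in STK in 7 of 7 female classes (1.05 to 1.68, median 1.30) and 10 of 10 male classes (1.12 to 1.58, median 1.29). H2-D1 was higher in 7 of 7 (1.14 to 1.66, median 1.53) and 10 of 10 (1.04 to 1.39, median 1.26). Psmb9 was higher in 7 of 7 and 9 of 10, with medians of 1.37 and 1.14. Psmb10 took opposite sides, higher in 7 of 7 female classes (median 1.15) and lower in 8 of 10 male classes (median 0.922), and the difference between the sexes was not tested. Each sex within a library is still the cells of 1 library, and the share of all genes on 1 side in as many classes was not counted.

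Hepatocyte-marker cells also had 0 of 10 genes past 1.5 times in either direction between the libraries, where 2.98% of all genes were higher and 2.87% lower. H2-K1 was at 1.16 times (1.11 to 1.21) and H2-D1 at 1.30 times (1.18 to 1.44), close to their ratios in leukocytes. B2m was at 1.03 (0.978 to 1.08) and Tapbp at 1.18 (1.00 to 1.38). Psmb10 was at 0.912 (0.886 to 0.940), and Tap1, Tap2, Nlrc5 and Psmb9 lay between 0.733 and 0.766 on 9 to 144 UMIs per library.

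In hepatocyte-marker cells with no pan-leukocyte UMI, 2 of the 8 genes with 50 UMIs on the higher side were past 1.5 times lower in STK, where 2.53% of all genes were, and 0 were past it higher, where 3.22% were. The lower ones were Tap1, with 81 UMIs (3.78 CPM) in DMSO and 18 UMIs (1.24 CPM) in STK, a ratio of 0.328 (0.185 to 0.552), and its neighbour Psmb9, with 66 (3.08 CPM) and 15 UMIs (1.03 CPM), a ratio of 0.335 (0.178 to 0.594). H2-K1 stayed at 1.14 (1.08 to 1.21) and H2-D1 at 1.23 (1.04 to 1.46) in these cells.

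Female hepatocyte-marker cells numbered 271 in DMSO and 526 in STK, male ones 651 and 118. H2-K1 was higher in STK in both, at 1.35 times (108 to 147 CPM) in female cells and at 1.5 times (159 to 239 CPM) in male cells. The ratio of H2-D1 was 0.910 for female cells against 2.99 for male ones, and that of Psmb10 was 0.985 and 0.628. Male STK cells held more leukocyte RNA than the other groups, with pan-leukocyte markers at 1.20% of the leukocyte level against 0.405% in male DMSO cells and 0.476% and 0.499% in female ones. Without cells that held such UMIs, the ratio of H2-D1 was 1.02 for female cells against 2.58 (1.90 to 3.48) for male ones, and that of Psmb10 0.958 and 0.666 (0.610 to 0.725), the latter on 481 DMSO and 81 STK cells.

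**Figure D4:**
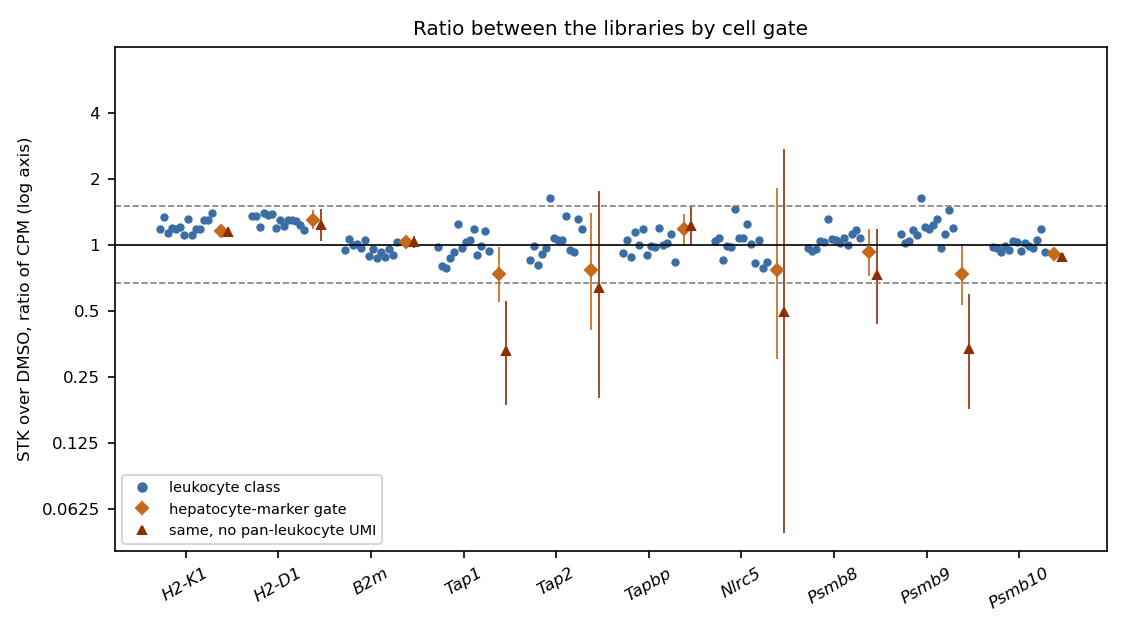
Ratio of CPM in STK over DMSO (log axis) of the 10 genes in each of the 14 leukocyte classes (blue circles), in hepatocyte-marker cells (orange diamonds) and in those with no pan-leukocyte UMI (dark red triangles), with 95% counting intervals on the last 2 kinds of point. Dashed lines mark 1.5 times in either direction. H2-K1 and H2-D1 lie above 1 in every class, 2 blue points (Tap2 and Psmb9 in B cells) pass the upper line, and in the last kind of cell Tap1 and Psmb9 fall below the lower line, as do Tap2 and Nlrc5, whose bars cross 1.

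In the rest of the pathway, 0 of the 30 listed genes was past 1.5 times between the libraries in all leukocytes. Of all genes tested there, 3.94% were higher and 4.41% lower. In hepatocyte-marker cells 2, H2-Q7 and Cd1d1, were past it, where 2.98% of all genes tested were higher and 2.87% lower. H2-Q7 went from 5.21 to 8.41 CPM (1.61 times, 1.28 to 2.03) and Cd1d1, which presents lipids to NKT cells, from 3.97 to 6.11 CPM (1.54 times, 1.18 to 2.01). In hepatocyte-marker cells with no pan-leukocyte UMI, 0 of these 2 was past 1.5 times. The 1 listed gene past it with 50 UMIs was Jak2 (1.56 times, 1.11 to 2.21, on 68 and 72 UMIs). Of all genes tested in those cells, 3.22% were higher and 2.53% lower. Irf1 and Ifngr1 were at 1.43 and 1.35 times in all hepatocyte-marker cells.

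The genes most like the 10 were ranked by Pearson's correlation of log2(CPM + 1) with the mean profile of the 10 over 30 points, the 14 leukocyte classes and the hepatocyte-marker cells in each library. Among the 5 highest were Sri (0.98), Itga4 (0.96), Uba7 (0.95) and Dock8 (0.95). Each of the 10 genes but Psmb10 correlated with their mean at 0.92 to 0.98, and Psmb10 at -0.25. Points share libraries, and the gap between hepatocyte-marker cells and leukocytes sets most of these values. Over the 28 leukocyte points alone, the 5 highest included Sri (0.92), Arhgap1 (0.90), Psme2 (0.88) and Iffo2 (0.85), and Psmb10 was at 0.62, beside 0.55 for H2-D1 and 0.58 for B2m. The mean profile holds each of the 10 genes itself.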

How the data were processed

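The authors deposited unnormalized UMI counts for each gene and barcode, made with Cell Ranger 6.0.2 per the file headers and on GRCm38 per the submitters' processing notes. For each gate of each library, summed counts were scaled by the gate's total (CPM). The 10 genes, the marker lists and the pathway lists were chosen with earlier results of these data known. The hepatocyte-marker gate was added after the data were seen. Genes were called at 1.5 times, and the share of all genes called was taken over genes with at least 50 UMIs on the higher side. Named genes were the 10, the 2 of each pathway list furthest from equal with at least 50 CPM and 50 UMIs (others were named after their values were seen), and the 5 most alike, of which some are not reported here. CPM have exact Poisson, shares exact Clopper-Pearson and ratios exact conditional binomial intervals, with a floor of 3 UMIs in medians of ratios. The ratio code was tested on simulated data. Positions came from GENCODE vM21. Scrublet (scanpy 1.11.5, expected rate 8%) was an alternative only. Its automatic threshold marked 0 STK cells, so a score of 0.25 was set for both libraries after the scores were seen, marking 396 DMSO and 425 STK cells. Python 3.11.15, numpy 2.4.6 and scipy were used. Alternatives are listed in the closing section.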

Additional observations from a re-analysis of the deposited data

Results flagged for a closer look

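Psmb8 moved in opposite directions between the libraries in female and male hepatocyte-marker cells. The STK over DMSO ratio was 0.505 in female cells (55 and 60 UMIs) and 2.48 in male cells (68 and 28 UMIs), past 1.5 times in each direction. The difference between the sexes was not tested. Pan-leukocyte markers in male cells were at 0.405% of the leukocyte level in DMSO and 1.20% in STK. In cells with no pan-leukocyte UMI the ratio was 0.519 in female cells (18 and 19 UMIs) and 0.226 in male cells (27 and 1 UMIs), so the opposite directions were not seen there.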

How the results depend on the processing

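Groups had 1 library each, so differences between mice and libraries were not measured, and the 5% gate was too small for STK against DMSO. At 20% the gate held 0 cells, which gave no value, and sex-split gates with fewer than 5 cells were not run. No paired analysis was possible because each group had 1 library. Alternatives chosen after seeing the data were the hepatocyte-marker gate, its cells with no pan-leukocyte UMI, the cleaned leukocyte gates and the Scrublet score. Counts of genes lower in hepatocytes stayed at 8 to 10 in 55 values, each for 1 gate, library and alternative setting. Counts between libraries in pooled leukocytes stayed at 0 in 24 values, each for 1 direction and setting. Values under the same setting share their cells. Some ratios of STK over DMSO moved to the other side of 1, among them in hepatocyte-marker cells Psmb8 (0.926 in the report, 2.48 in male cells) and H2-D1 (1.30 in the report, 0.910 in female cells).

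Gene and class pairs higher in STK (2 in the report) numbered 25 with UMIs per cell unscaled, 11 of 70 in female cells, 0 at a threshold of 2 times and 1 in leukocytes cleaned of cells with more hepatocyte markers or little pan-leukocyte RNA. In hepatocyte-marker cells, genes lower in STK (0 in the report) numbered 2 under the 10% pan-leukocyte limit, 3 with the mean of each cell's CPM, 3 in female and 1 in male cells, 1 at a 5% mitochondrial limit, and 4 with no pan-leukocyte UMI and no minimum count. Genes higher in STK numbered 2 in male cells.

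In hepatocyte-marker cells, the Psmb8 share of its pair (DMSO and STK) was 0.588% and 0.614% under the 10% pan-leukocyte limit, 0.571% and 0.399% with no pan-leukocyte UMI, 2.05% and 1.01% in female and 0.926% and 2.35% in male cells, and 1.07% in DMSO without doublets. The Psmb9 share was 0.764% and 0.492% under the limit and 0.775% and 0.260% with no such UMI, and in DMSO 1.37% in female and 0.858% in male cells. The Psmb10 share was 72.2% in female DMSO, 68.4% in male DMSO and 61.8% in male STK cells.

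In leukocytes, the Psmb8 share was 77.3% and 75.4% without doublets, 72.1% and 74.1% in female cells, 76.2% and 76.0% in male cells, 78.4% and 76.2% after cleaning, and 75.2% in STK with a marker lead of 0.25. The Psmb9 share was 57.2% and 58.9% without doublets, 51.0% and 57.3% in female cells, 60.1% in male STK cells, 58.4% and 60.0% after cleaning, and 57.2% in DMSO with the lead. The Psmb10 share was 71.3% in female DMSO cells and 72.0% and 70.2% in male cells.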
